A study of Mus musculus with 16 samples.

Results

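The genes described here are 45 genes of DNA replication and mitosis, found by their symbols among the 27179 rows of the normalized count table. They divide into 17 replication genes, 26 mitosis genes and 2 transcription factors of the cell cycle, E2f1 and Foxm1. All 45 were in the table, and all 45 passed the filter on low values, which asked for 10 normalized counts or more in 4 or more of the 16 libraries and kept 15024 genes. The libraries came from cells carrying the receptor Pdgfrb, sorted by flow cytometry on postnatal day 7 from C57BL/6 mice, whose epididymal white fat was used. Each of 4 cell subpopulations had 4 libraries: the APCs, known in this field as adipocyte precursor cells, the FIPs, or fibro-inflammatory progenitors, the MLCs, or mesothelial-like cells, and the SMCs, or smooth muscle cells. No treatment, transgene or genotype is given for any group, and every group shares the strain, the depot, the age and the receptor gate. The labels do not say whether libraries of a population came from separate animals or sorts, so p-values measure the spread among libraries that may be technical replicates.

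Between 9204654 and 27528365 reads per library lay behind the values. SMCs replicate 3 and APCs replicate 4 were the shallowest. Markers were checked as sums of normalized counts per library. The mesothelial markers averaged 134817 in the MLCs and 13502 in the SMCs. The adipocyte precursor markers averaged 218763 in the APCs, 96991 in the FIPs, 67093 in the SMCs and 3439 in the MLCs. Col15a1 and Lpl gave 112826 and 55358 of that sum in the APCs. Pdgfra, also on that list, was lower in the APCs (20555) than in the FIPs (22966) and SMCs (23838). The other members of the list averaged highest in the APCs. The FIP markers averaged 635096 in the FIPs and between 123272 and 144750 elsewhere. Fibronectin, Fn1, gave 560212 of that sum in the FIPs, and another member, Dpp4, was higher in the MLCs (8805) than in the FIPs (2053). In the SMCs the label held for some markers and not for others. Smooth muscle and pericyte markers summed to 16813 in the SMCs, 11080 in the APCs and 10762 in the MLCs. The contractile genes Acta2, Tagln and Cnn1 averaged 4537, 1997 and 220 in the SMCs and at most 1428, 564 and 74.2 elsewhere. The smooth muscle myosin Myh11 averaged 1262 in the SMCs and 1288 in the MLCs, the pericyte marker Rgs5 averaged 72.7 in the SMCs, and the fibroblast receptor Pdgfra averaged 23838 there.

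A cell copies its DNA once in each cycle. Origins of replication are licensed when Cdc6 and Cdt1 load the Mcm2 to Mcm7 ring, which becomes the replicative helicase when Cdc45 and the GINS proteins join it. Ribonucleotide reductase and thymidylate synthase supply the nucleotides. Later, cyclins A and B with Cdk1, and the Aurora and Polo kinases, drive the condensed chromosomes onto a spindle, a checkpoint holds them until each is attached, and a contractile ring divides the cell. The replication genes are classic targets of E2F factors, and most mitosis genes are bound by the DREAM complex in resting cells and by MuvB with B-Myb and FoxM1 in dividing ones. In white fat of young animals the progenitor cells are known to divide.

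The promoters of both classes are shown first because the motif letters in them differ between the classes. RefSeq promoters of build GRCm38.p6, reaching from 250 bases before each start to 50 bases after it, were found for 37 of the 45 genes, and some genes had more than 1 start. Aurkb, Mcm4, Gins2, Gins1, Tpx2, Ccna2, Foxm1 and Kif20a had no entry. A set of 3 short motifs was searched on both strands: the cell cycle homology region bound by MuvB (CHR, written TTTGAA, or with a C in place of a T TTCGAA), the E2F site (written TTCCCGC in one form, while the others tried were TTCGCGC, then the form TTGCCGC and lastly the form TTGGCGC) and the box of the factor NF-Y (CCAAT). E2F letters can overlap one another, as in TTGGCGCGAA, and CCAAT read on the other strand shares its TTGG with TTGGCGC. For 4 mitosis genes and 3 replication genes, the 170 bases before the start are printed 5′ to 3′ on the gene's own strand, with every match to any of the 3 motifs in capitals.
Cdc20, chr4:118437344-118437513, minus strand: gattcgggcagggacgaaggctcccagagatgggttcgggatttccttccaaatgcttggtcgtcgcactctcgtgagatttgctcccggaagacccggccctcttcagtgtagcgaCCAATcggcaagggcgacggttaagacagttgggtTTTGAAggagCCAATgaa
Cdk1, chr10:69352913-69353082, minus strand: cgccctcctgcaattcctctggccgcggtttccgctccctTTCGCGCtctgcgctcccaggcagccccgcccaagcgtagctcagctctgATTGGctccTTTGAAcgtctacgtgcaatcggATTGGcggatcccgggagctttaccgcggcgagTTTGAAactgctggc
Kif11, chr19:37376212-37376381, plus strand: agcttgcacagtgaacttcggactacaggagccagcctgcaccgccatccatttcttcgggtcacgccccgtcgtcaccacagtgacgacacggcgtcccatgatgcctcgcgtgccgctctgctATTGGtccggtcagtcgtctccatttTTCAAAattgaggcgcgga
Top2a, chr11:99024190-99024359, minus strand: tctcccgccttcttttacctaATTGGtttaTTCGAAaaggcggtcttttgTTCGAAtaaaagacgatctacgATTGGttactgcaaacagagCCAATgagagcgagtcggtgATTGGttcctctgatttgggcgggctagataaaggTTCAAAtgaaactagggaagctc
Mcm5, chr8:75109339-75109508, plus strand: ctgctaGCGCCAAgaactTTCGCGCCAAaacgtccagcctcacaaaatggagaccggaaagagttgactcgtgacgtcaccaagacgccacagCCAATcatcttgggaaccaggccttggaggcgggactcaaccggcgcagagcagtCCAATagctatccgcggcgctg
Mcm6, chr1:128359706-128359875, minus strand: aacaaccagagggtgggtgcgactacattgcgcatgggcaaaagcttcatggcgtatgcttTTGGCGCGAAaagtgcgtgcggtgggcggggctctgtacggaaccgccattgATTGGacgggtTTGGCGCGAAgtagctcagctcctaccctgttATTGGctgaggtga
Rrm1, chr7:102441525-102441694, plus strand: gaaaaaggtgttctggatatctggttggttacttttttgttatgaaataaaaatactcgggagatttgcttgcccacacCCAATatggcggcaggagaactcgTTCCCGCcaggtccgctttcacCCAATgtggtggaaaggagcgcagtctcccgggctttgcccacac

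The 7 windows were picked by hand and do not stand for every gene of their class. All lie upstream of the start used by the RefSeq promoter table. Other annotated transcripts begin earlier: the outer RefSeq bounds of Mcm5 and Top2a reach 41 and 10 bases into their windows, and GENCODE exons of Cdc20 and Cdk1 cover 9 and 26 bases of theirs. The Cdc20 window holds 1 CHR and 2 CCAAT boxes, with the CHR between the boxes. Those of Kif11 and Top2a hold 1 and 3 CHR, each with CCAAT boxes and no E2F letters. Cdk1 holds 2 CHR, 2 CCAAT boxes and 1 E2F match. The Mcm5 window holds 3 E2F matches, the last 2 overlapping, and the Mcm6 window holds 4 in 2 overlapping pairs, with no CHR in either. The Rrm1 window holds 1 E2F match, 2 CCAAT boxes and no CHR.

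Over all matched genes, the CHR letters were in the promoters of 17 of 22 mitosis genes and 3 of 14 replication genes. By promoter this was 79.2% of 24 against 18.8% of 16, beside 17.6% of 21263 protein-coding promoters and 19.2% of all 32851 promoters. E2F letters ran the other way, in 10 of 14 replication genes and 4 of 22 mitosis genes, or 75% and 20.8% of promoters, beside 12.1% of protein-coding and 9.57% of all promoters. CCAAT was common to both classes, in 75% of replication and 83.3% of mitosis promoters, beside 38.2% of protein-coding and 37.4% of all promoters. No CHR letters were found for Birc5, Ccnb1, Cenpe, Mad2l1 and Nusap1. Cdc45 and Mcm2 had CHR and no E2F letters, and Pcna and Tyms had neither. The promoter of E2f1 held none of the 3 motifs. A match says only that the letters are in the window, and its share in the genes was not tested.

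**Figure D1:**
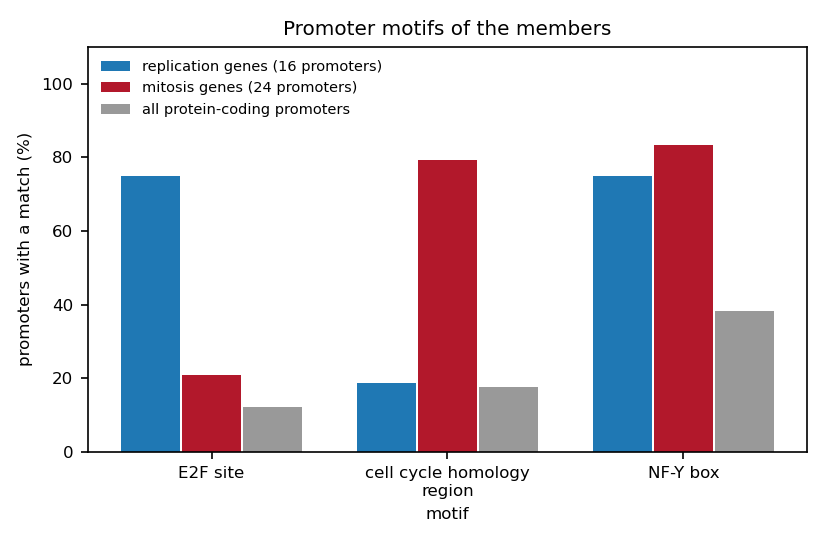
Share of promoters (percent, y axis) with a match to the E2F site, the cell cycle homology region (CHR) and the CCAAT box bound by NF-Y (x axis), for 16 promoters of replication genes, 24 of mitosis genes and 21263 protein-coding promoters. The E2F bar is highest for replication genes (75%), the CHR bar for mitosis genes (79.2%), and the CCAAT bars of both classes stand above the 38.2% of all protein-coding promoters.

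The genes followed one order over the populations: highest in the MLCs, then the APCs, then the SMCs, and lowest in the FIPs. That order of population means held for 12 of 17 replication genes, 25 of 26 mitosis genes and Foxm1, and for 5.09% of all tested genes. In 4 other replication genes the last places were exchanged (MLCs, APCs, FIPs, SMCs, an order of 4.69% of tested genes). Mcm4 was highest in the APCs (its order held in 3.1% of tested genes), Cenpf stood in the order MLCs, SMCs, APCs, FIPs (9.13%), and E2f1 ran from the FIPs down through APCs and SMCs to the MLCs (8.58%). As the libraries are bulk, fewer dividing cells and less RNA of these genes per cell cannot be told apart.

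**Figure D2:**
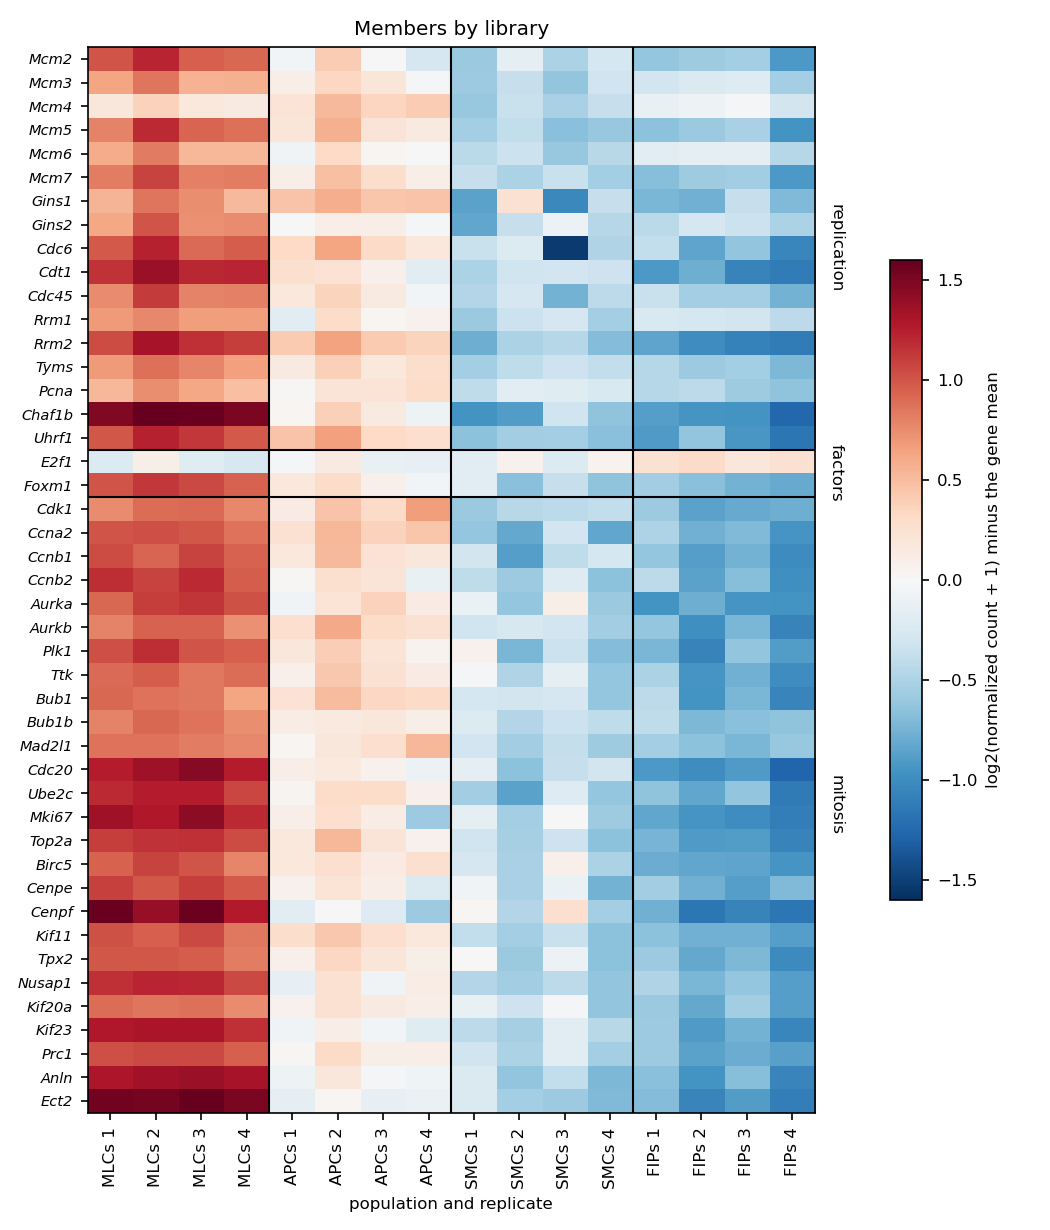
Heat map of the 45 genes (rows, grouped as replication genes, factors and mitosis genes) in the 16 libraries (columns, by population and replicate), coloured by log2(normalized count + 1) minus the gene's mean over the libraries. The 4 MLC columns are the reddest and the FIP columns are mostly the bluest, and E2f1 alone is reddest in the FIPs.

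Differences were tested with limma on log2(normalized count + 1), and "called" means an adjusted p under 0.05 together with a 2-fold or larger change. Between FIPs and MLCs, the populations at the ends of the order, 14 of 17 replication and 26 of 26 mitosis genes were called higher in the MLCs and none lower, where 31.1% of all tested genes were called in either direction and 18.6% as higher in the MLCs. The median log2 difference, FIPs minus MLCs, was -1.42 for replication genes, -1.81 for mitosis genes and -0.02 for all tested genes. The 3 replication genes not called were Mcm3, Mcm4 and Mcm6, at -0.98, -0.35 and -0.86. MLCs against SMCs gave 15 of 17 and 26 of 26 called higher in the MLCs (14.4% of tested genes in that direction, 27.9% in either), with medians of 1.33 and 1.46 against 0.04 for all tested genes. There, Mcm4 (0.68) and Pcna (0.85) were not called.

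The APCs took the middle. Against the FIPs, 6 of 17 replication and 12 of 26 mitosis genes were called higher in the APCs and none lower, beside 10.4% of tested genes called in either direction, 5.22% as higher in the APCs and 5.2% as higher in the FIPs. The medians were 0.82 and 0.97 against -0.01 over all tested genes. With no limit on the fold, all 17 and all 26 had an adjusted p under 0.05 and were higher in the APCs, beside 19.8% of tested genes. When libraries were scaled to equal totals, which shifted the median of all genes in this pair to 0.23, 24 mitosis genes were called. Quantile normalization left 2 replication genes called.

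Against the MLCs, 3 replication and 10 mitosis genes were called lower in the APCs, beside 29.6% of tested genes called in either direction and 17.7% as higher in the MLCs, so that the share of replication genes called was near the background. The medians, APCs minus MLCs, were -0.66 and -0.85 against -0.02. All 4 MLC libraries stood above all 4 APC libraries in 15 replication and 26 mitosis genes, a separation in that direction seen in 32.8% of tested genes.

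Against the SMCs, 3 replication genes and 1 mitosis gene were called higher in the APCs, beside 17.2% of tested genes in either direction and 3.79% as higher in the APCs. The medians were 0.66 and 0.53 against -0.02. These small counts moved with the processing: the count of replication genes was 1 without APCs replicate 2, 1 with edgeR on the recovered reads (which also leaves out that library), 2 without SMCs replicate 3, 4 without SMCs replicate 2 or 4, and 5 under quantile normalization. The count of mitosis genes was 0 without APCs replicate 2, SMCs replicate 2 or SMCs replicate 4. With no limit on the fold, 17 and 24 genes were higher in the APCs at an adjusted p under 0.05, beside 26.3% of tested genes.

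FIPs and SMCs took the low end of the order. No member of either class was called by limma or by edgeR, where 17.9% of tested genes were called, 13.3% as higher in the SMCs and 4.6% as higher in the FIPs. At an unadjusted p under 0.05, 9 of 17 replication genes (2 higher in the FIPs, 7 in the SMCs) and 22 of 26 mitosis genes (all higher in the SMCs) differed, beside 28.8% of tested genes higher in the FIPs and 30% higher in the SMCs at the same limit, so that the share of replication genes was near the background. The medians, FIPs minus SMCs, were -0.14 for replication genes and -0.41 for mitosis genes. Under quantile normalization the replication median changed sign to 0.03 and the mitosis median was -0.34. With libraries scaled to equal totals, which moved the median of all genes in this pair to -0.23, they were -0.36 and -0.63, and 1 mitosis gene, Cenpf, was called higher in the SMCs. With no limit on the fold, 7 replication genes (5 higher in the SMCs) and 21 mitosis genes (all higher in the SMCs) had an adjusted p under 0.05, beside 27.6% of tested genes higher in the SMCs and 26.4% higher in the FIPs. The pairs of populations share libraries and are not independent of one another.

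**Figure D3:**
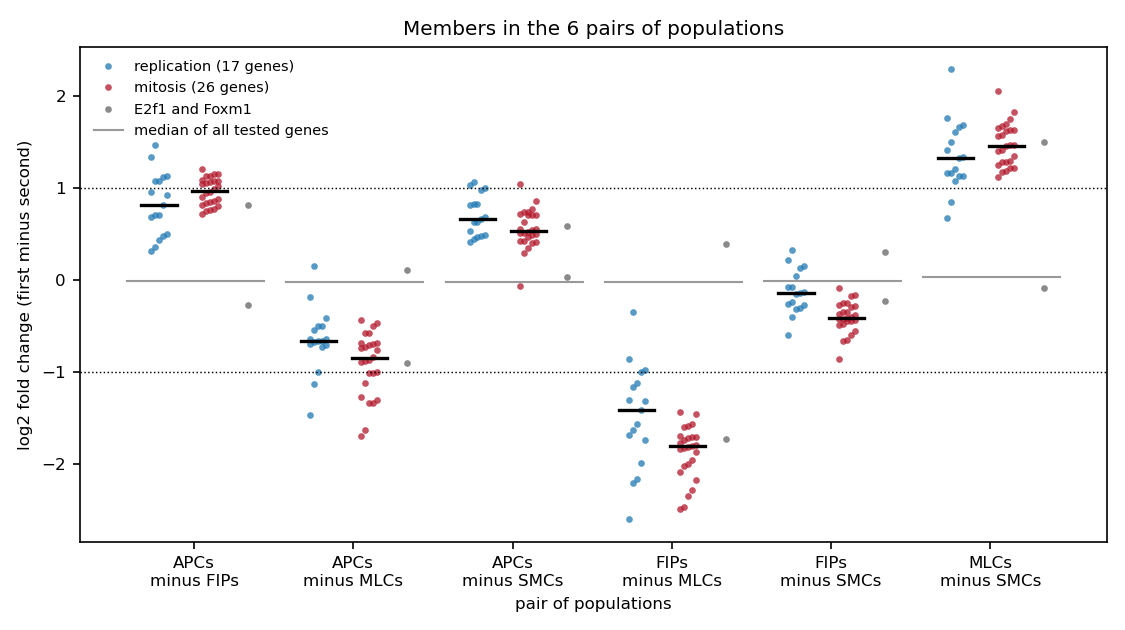
Log2 fold change of each gene (y axis, first population minus second) in the 6 pairs of populations (x axis). Blue points are the 17 replication genes, red points the 26 mitosis genes, grey points E2f1 and Foxm1, black bars class medians, grey lines the median of all tested genes, and dotted lines a 2-fold change. All red points lie beyond the dotted line in the FIPs minus MLCs and MLCs minus SMCs pairs, and none do in FIPs minus SMCs.

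Of the origin licensing genes, Cdt1 had the widest range between populations. Normalized counts of Cdt1, which loads the Mcm ring, were 814, 949, 845 and 854 in the MLCs, 437, 429, 387 and 325 in the APCs, 256, 291, 295 and 289 in the SMCs and 192, 213, 174 and 167 in the FIPs, in order of replicate number, which is the order used below. The 4 groups of libraries did not overlap. The fitted log2 difference, FIPs minus MLCs, was -2.21 ± 0.10 (SE), adjusted p = 1.28e-13, and Cdt1 was also called between APCs and MLCs at -1.14 ± 0.10, adjusted p = 4.45e-09.

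Cdc6, the other loading factor, read 332, 394, 316 and 328 in the MLCs, 209, 261, 208 and 188 in the APCs, 131, 144, 57.6 and 119.5 in the SMCs and 128, 93.4, 108 and 80.7 in the FIPs. The SMCs and FIPs overlapped, and SMCs replicate 3, the shallowest library, had the lowest value of all 16. Cdc6 was called higher in the APCs than in the FIPs, by 1.08 ± 0.22 (adjusted p = 0.000426), and in the MLCs than in the FIPs, by 3.36-fold (adjusted p = 5.81e-07). Mcm2, a helicase subunit, read 1844, 2134, 1775 and 1722 in the MLCs, 886, 1207, 921 and 757 in the APCs, 605, 818, 643 and 750.00 in the SMCs and 597, 615, 625 and 484 in the FIPs. Its MLC libraries stood above all others, its lowest APC library fell within the SMC range, and the SMC and FIP ranges overlapped. The FIPs minus MLCs difference of Mcm2 was -1.69 ± 0.12, adjusted p = 2.88e-10.

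The other licensing and helicase genes spanned log2 differences, FIPs minus MLCs, from -0.35 for Mcm4 upward in size to -1.63 for Mcm5. Cdc45, which activates the helicase, averaged 459 ± 56.5 (SD, n = 4) normalized counts in the MLCs, 280 ± 31.6 in the APCs, 180.4 ± 24.8 in the SMCs and 171 ± 18.8 in the FIPs. Of the GINS genes, Gins2 averaged 389 ± 44.8 in the MLCs, 232 ± 11.3 in the APCs, 169 ± 34.9 in the SMCs and 172 ± 12.1 in the FIPs. Normalized counts of Gins1 were lower. Gins1 averaged 127 ± 14.6 in the MLCs, 111 ± 5.12 in the APCs, 59.2 ± 25.2 in the SMCs and 50.7 ± 6.96 in the FIPs, and MLCs and APCs were not told apart (-0.18 ± 0.21, adjusted p = 0.448).

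Mcm4 departed from the other helicase subunits; it was singled out after its values were seen. Its normalized counts were 1951, 2222, 1944 and 1909 in the MLCs, 1997, 2475, 2188 and 2283 in the APCs, 1131, 1348, 1202 and 1339 in the SMCs and 1592, 1633, 1681 and 1401 in the FIPs. MLC and APC libraries overlapped, and the FIP libraries stood above the SMC libraries. The APCs minus MLCs difference was 0.15 ± 0.08, adjusted p = 0.0853, and the FIPs minus SMCs difference was 0.33 ± 0.08, adjusted p = 0.0014, which is under 2-fold.

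Per kilobase of exon, Mcm4 averaged 559 ± 40.3 (SD, n = 4) normalized counts in the MLCs, 623 ± 55.4 in the APCs, 349.6 ± 29.6 in the SMCs and 439 ± 34.2 in the FIPs. The other 5 subunits averaged from 491 (Mcm5) to 702 (Mcm6) in the MLCs, and from 279.7 (Mcm2) to 481 (Mcm6) in the APCs. In the FIPs and SMCs the highest of the other 5 was again Mcm6, at 386 and 332. Thus Mcm4 lay within the range of the ring's other genes in the MLCs and above it in the other 3 populations. As a log2 difference between Mcm4 and the mean of the other 5, the libraries gave 0.01 to 0.10 in the MLCs, 0.58 to 0.75 in the SMCs, 0.78 to 1.09 in the APCs and 1.03 to 1.14 in the FIPs. The MLC and SMC ranges met no other, and the APC and FIP ranges overlapped.

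**Figure D4:**
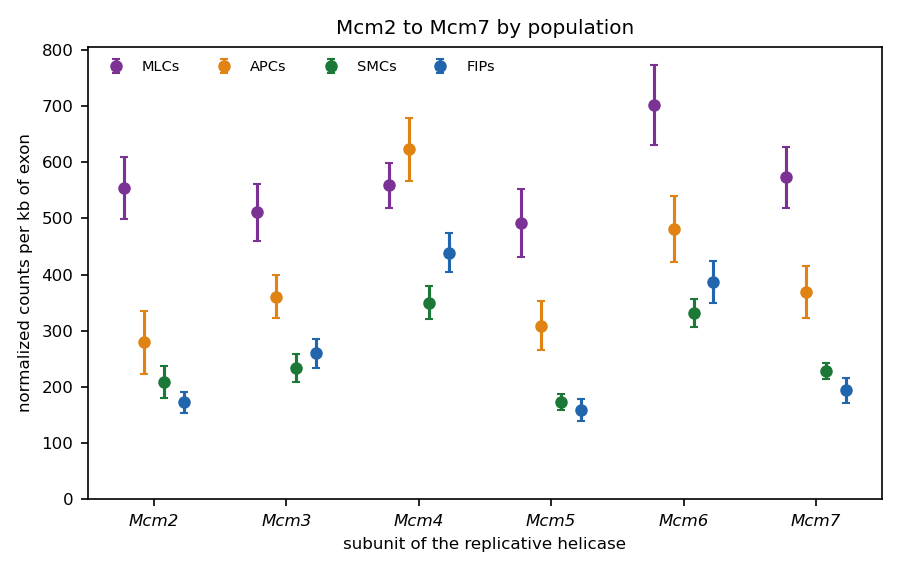
Mean normalized counts per kilobase of exon (y axis) of the 6 Mcm genes (x axis) in the 4 populations, with bars of 1 SD over 4 libraries. The MLC point is highest for Mcm2, Mcm3, Mcm5, Mcm6 and Mcm7, and for Mcm4 the APC point (623) stands above the MLC point (559).

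Among the genes of nucleotide supply, Rrm2 and Rrm1, the small and large subunits of ribonucleotide reductase, differed in range. Rrm2 read 1067, 1283, 1155 and 1114 in the MLCs, 688, 807, 691 and 659 in the APCs, 299, 361, 376 and 319 in the SMCs and 286, 258, 243 and 237 in the FIPs. No populations overlapped. Rrm2 was called in every pair except APCs against MLCs and FIPs against SMCs; the FIPs minus MLCs difference was -2.17 ± 0.09, adjusted p = 3.59e-14, and the APCs minus FIPs difference was 1.47 ± 0.09, adjusted p = 1.16e-10.

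Rrm1 read 3242, 3449, 3227 and 3213 in the MLCs, 1796, 2479, 2082 and 2123 in the APCs, 1342, 1596, 1685 and 1396 in the SMCs and 1714, 1666, 1660.3 and 1519.9 in the FIPs. Its FIP and SMC libraries overlapped, and the excess of the MLCs over the FIPs (adjusted p = 2.07e-09) lay just past the 2-fold limit. Tyms, thymidylate synthase, averaged 587 ± 41.7 (SD, n = 4) in the MLCs, 413 ± 31.1 in the APCs, 261 ± 16.1 in the SMCs and 234 ± 17.4 in the FIPs, and FIPs minus MLCs was -1.32 ± 0.08, adjusted p = 2.43e-11.

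The genes that act behind the fork held the widest range of the replication class. Chaf1b, a subunit of the chromatin assembly factor that deposits histones on new DNA, read 614, 764, 658 and 621 in the MLCs, 224, 286, 241 and 206 in the APCs, 113, 117, 175 and 139.99 in the SMCs and 118, 113, 113 and 90.7 in the FIPs. The MLC libraries stood far above the rest, and SMCs and FIPs overlapped. The difference was -2.60 ± 0.14 in FIPs minus MLCs, a 6.08-fold change (adjusted p = 1.83e-12), and -1.48 ± 0.14 in APCs minus MLCs (adjusted p = 1.27e-08).

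Uhrf1, which brings the methyltransferase Dnmt1 to newly copied DNA, read 1815, 2125, 1988 and 1799 in the MLCs, 1246, 1429, 1136 and 1096 in the APCs, 575, 617, 621 and 571 in the SMCs and 482, 585, 476 and 405 in the FIPs. MLCs and APCs each stood clear of the other populations, while FIPs replicate 2 reached into the SMC range. Uhrf1 was called higher in the APCs than in both the FIPs (1.34 ± 0.10, adjusted p = 1.47e-09) and the SMCs (1.03 ± 0.10, adjusted p = 3.94e-08). Pcna, the sliding clamp, also serves DNA repair. It averaged 2627 ± 208 (SD, n = 4) in the MLCs, 1979 ± 156 in the APCs, 1453 ± 104 in the SMCs and 1209 ± 84.1 in the FIPs, and only FIPs against MLCs was called (-1.12 ± 0.07, adjusted p = 5.12e-11).

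Of the mitotic kinases and cyclins, 7 of 8 were called higher in the APCs than in the FIPs (5.22% of tested genes), and with no limit on the fold all 8 were (19.8%), with log2 differences from 0.82 (Ccnb2, not called) to 1.21 (Aurkb). Only Ccnb2 of the 8 was called between APCs and MLCs, higher in the MLCs. That share was not above the 17.7% of tested genes called in that direction. Aurka, the centrosome kinase, read 395, 449.9, 463 and 422 in the MLCs, 201, 244, 269.5 and 228 in the APCs, 194, 136, 222 and 138 in the SMCs and 107, 121, 108 and 107 in the FIPs. Its SMC libraries divided, replicates 1 and 3 lying near the APCs and replicates 2 and 4 near the FIPs, without overlapping the FIPs. FIPs minus MLCs was -1.95 ± 0.14, adjusted p = 1.86e-10.

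Plk1, the Polo kinase of mitotic entry, read 703, 781, 693 and 668 in the MLCs, 389, 451, 398 and 358 in the APCs, 360.1, 206, 271 and 213 in the SMCs and 207, 164, 221 and 184 in the FIPs. The SMC range covered the lowest APC library and reached into the FIP range. The differences were -1.88 ± 0.14 in FIPs minus MLCs (adjusted p = 4.28e-10) and 1.04 ± 0.14 in APCs minus FIPs (adjusted p = 6.22e-06). Ccnb2, a B-type cyclin, averaged 1001 ± 70.9 (SD, n = 4) in the MLCs, 497 ± 57.4 in the APCs, 339 ± 48.9 in the SMCs and 283 ± 49.3 in the FIPs; APCs minus MLCs was -1.01 ± 0.12, adjusted p = 3.31e-07. Ccna2, cyclin A2, which acts from S phase onward, was the 1 mitosis gene called between APCs and SMCs, at 1.04 ± 0.10 (adjusted p = 9.73e-08).

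Cdc20, the activator of the anaphase-promoting complex whose promoter is shown above, had the widest range of the checkpoint group. It read 1216, 1302, 1402 and 1215 in the MLCs, 547, 567, 532 and 479 in the APCs, 462, 322, 393 and 417 in the SMCs and 269, 255, 270.2 and 210.4 in the FIPs. No populations overlapped. The differences were -2.35 ± 0.10 in FIPs minus MLCs, a 5.11-fold change (adjusted p = 7.97e-14), and -1.27 ± 0.10 in APCs minus MLCs (adjusted p = 1.3e-09).

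Ube2c, the ubiquitin-conjugating enzyme of the same complex, averaged 799.7 ± 46.9 (SD, n = 4) in the MLCs, 396 ± 36.8 in the APCs, 239 ± 46.5 in the SMCs and 200.2 ± 30.7 in the FIPs, and was called against the MLCs in all 3 other populations. Bub1, a kinase of the spindle checkpoint, averaged 522 ± 44.6 in the MLCs, 377 ± 31.5 in the APCs, 231 ± 25.2 in the SMCs and 173 ± 35.8 in the FIPs. Bub1 was called between APCs and FIPs (1.14 ± 0.12, adjusted p = 3.82e-07) and not between APCs and MLCs (-0.47 ± 0.12, adjusted p = 0.0024, under 2-fold).

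Of the chromosome and centromere genes, Cenpf, a kinetochore protein that accumulates late in the cycle, read 3593, 3168, 3587 and 2913 in the MLCs, 1070.01, 1208, 1039 and 804 in the APCs, 1229.8, 868, 1456 and 828 in the SMCs and 704, 539, 572 and 538 in the FIPs. SMCs replicates 1 and 3 exceeded every APC library, and replicates 2 and 4 lay among the lower ones. Cenpf had the largest FIPs minus MLCs difference of the mitosis genes, -2.50 ± 0.15 (adjusted p = 1.98e-11), and APCs minus SMCs was -0.06 ± 0.15 (adjusted p = 0.749).

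Mki67, which encodes the proliferation antigen Ki-67, read 10478, 9887, 11000.1 and 9323 in the MLCs, 4381, 4922, 4420.1 and 2718 in the APCs, 3650.4, 2792, 4095 and 2755 in the SMCs and 2292, 2115, 2057 and 1902 in the FIPs. The APC and SMC ranges overlapped, with APCs replicate 4 below all SMC libraries, and the MLCs stood clear of the rest. FIPs minus MLCs was -2.28 ± 0.15, a 4.86-fold change (adjusted p = 3.98e-11). In APCs replicate 4 the log2 difference between Mki67 and Cdk1 was 1.39, against 2.46 to 2.62 in the other 3 APC libraries, and its Cdk1 value of 1039 was the highest of the APCs; that library was also the shallowest of the APCs, at 11223980 reads.

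Top2a, the topoisomerase that untangles sister chromosomes, read 6962, 7171, 7264 and 6643 in the MLCs, 3634, 4672, 3737 and 3393 in the APCs, 2583, 2236, 2575 and 2049.7 in the SMCs and 1936, 1717, 1739 and 1536 in the FIPs. None of the 4 populations overlapped. The differences were -2.02 ± 0.09 in FIPs minus MLCs (adjusted p = 1.78e-13) and 1.15 ± 0.09 in APCs minus FIPs (adjusted p = 6.14e-09).

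The spindle genes varied little among themselves, with FIPs minus MLCs differences from -1.72 (Tpx2) to -1.84 (Nusap1). Kif11, the motor that pushes spindle poles apart, read 2184, 2101, 2248 and 1942 in the MLCs, 1313, 1450.1, 1298 and 1207 in the APCs, 821, 739, 841 and 684 in the SMCs and 683, 631, 630.1 and 582 in the FIPs. The 4 ranges did not overlap, although SMCs replicate 4 and FIPs replicate 1 nearly met. Kif11 was called higher in the APCs than in the FIPs (1.06 ± 0.08, adjusted p = 1.06e-09). Nusap1, which bundles spindle microtubules, averaged 1075 ± 53.5 (SD, n = 4) in the MLCs, 496 ± 58.8 in the APCs, 335 ± 22.2 in the SMCs and 300.4 ± 35.6 in the FIPs, and was called between APCs and MLCs (-1.12 ± 0.09, adjusted p = 2.06e-09). Tpx2, the activator of Aurka, averaged 1738 ± 100.2 in the MLCs, 1022 ± 81.4 in the APCs, 728 ± 166 in the SMCs and 528 ± 66.1 in the FIPs.

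None of the 5 midzone and cytokinesis genes reached 2-fold between APCs and FIPs, where 5.22% of tested genes were called higher in the APCs. Their log2 differences, from 0.77 to 0.91, overlapped those of the kinases and cyclins, and all 5 had an adjusted p under 0.05. Between APCs and MLCs, 3 of 5 (Ect2, Anln and Kif23) were called higher in the MLCs, beside 17.7% of tested genes, with a median over the 5 of -1.31. No difference between roles was tested. Ect2, the exchange factor that switches on RhoA at the equator, read 1772, 1756, 1831 and 1736 in the MLCs, 549, 621, 554 and 565 in the APCs, 517, 415, 408 and 371 in the SMCs and 377, 293, 326 and 283 in the FIPs. MLC values were tight and stood above all others, and the lowest SMC library fell within the FIP range. FIPs minus MLCs was -2.48 ± 0.10, a 5.57-fold change (adjusted p = 1.14e-14), and APCs minus MLCs was -1.63 ± 0.10 (adjusted p = 8.97e-12).

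Anln, the scaffold anillin of the contractile ring, read 3393, 3526, 3630.3 and 3451 in the MLCs, 1308, 1579, 1358 and 1319 in the APCs, 1183, 897, 1059 and 842 in the SMCs and 869.6, 717, 863 and 667 in the FIPs. The SMC and FIP ranges overlapped and the MLC and APC ranges stood clear. FIPs minus MLCs was -2.17 ± 0.10 (adjusted p = 2.05e-13). Kif23, the midzone kinesin of centralspindlin, averaged 1662 ± 76.4 (SD, n = 4) in the MLCs, 670.1 ± 58.1 in the APCs, 527 ± 56.8 in the SMCs and 393 ± 55.2 in the FIPs, and was called between APCs and MLCs (-1.31 ± 0.09, adjusted p = 2.3e-10). Anln and Ect2 also act in cell shape and adhesion outside division.

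The 2 transcription factors differed from each other. Foxm1, the forkhead factor of late cell cycle genes, read 1513, 1645, 1567 and 1447 in the MLCs, 846, 924, 796 and 728 in the APCs, 662, 473, 581 and 482 in the SMCs and 512, 472, 443 and 431 in the FIPs. Its populations stood in the order of the mitosis genes, and the SMC and FIP ranges overlapped. FIPs minus MLCs was -1.73 ± 0.10 (adjusted p = 5.14e-12) and MLCs minus SMCs was 1.50 ± 0.10 (adjusted p = 7.17e-11). E2f1, the founding E2F activator, read 416, 518, 424 and 406 in the MLCs, 478, 535, 448 and 444 in the APCs, 431, 511, 416 and 507 in the SMCs and 576, 602, 549.9 and 576 in the FIPs.

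All 4 FIP libraries of E2f1 stood above every other library, and the other 3 populations overlapped. E2f1 was called in no pair. FIPs minus MLCs was 0.39 ± 0.09 (adjusted p = 0.000807), under 2-fold, and with libraries scaled to equal totals it was 0.06 (adjusted p = 0.614). The E2f1 differences from APCs and SMCs also lost their significance under that scaling, at -0.03 in APCs minus FIPs (adjusted p = 0.812) and 0.09 in FIPs minus SMCs (adjusted p = 0.449). Quantile normalization kept all 3 in limma. There FIPs minus MLCs was 0.48 (adjusted p = 0.000122), APCs minus FIPs -0.27 (adjusted p = 0.0279) and FIPs minus SMCs 0.30 (adjusted p = 0.00961).

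The replication and mitosis classes were then compared within each pair, as a description with no test. The median log2 difference of the replication genes minus that of the mitosis genes was 0.39 in FIPs minus MLCs and 0.19 in APCs minus MLCs, meaning that mitosis genes were further below the MLCs than replication genes were. The value was -0.16 in APCs minus FIPs, 0.13 in APCs minus SMCs, 0.27 in FIPs minus SMCs and -0.14 in MLCs minus SMCs. The values of the SMC pairs moved when single libraries were left out, and only that of MLCs minus SMCs changed sign. Without SMCs replicate 1 the value was 0.06 in APCs minus SMCs and 0.14 in FIPs minus SMCs, without SMCs replicate 4 it was 0.20 in APCs minus SMCs, and without SMCs replicate 2 it turned to 0.05 in MLCs minus SMCs.

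Within a library, the mean of the 26 mitosis genes minus the mean of the 17 replication genes, both in log2(normalized count + 1), was 0.40, 0.17, 0.40 and 0.30 in the MLCs. It was 0.04, 0.01, 0.07 and 0.08 in the APCs, and 0.03, -0.21, -0.11 and -0.05 in the FIPs. The MLC libraries were all above the APC and FIP libraries. In the SMCs it was 0.45, -0.09, 0.43 and -0.01, so that replicates 1 and 3 lay with or above the MLCs and replicates 2 and 4 with the FIPs.

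**Figure D5:**
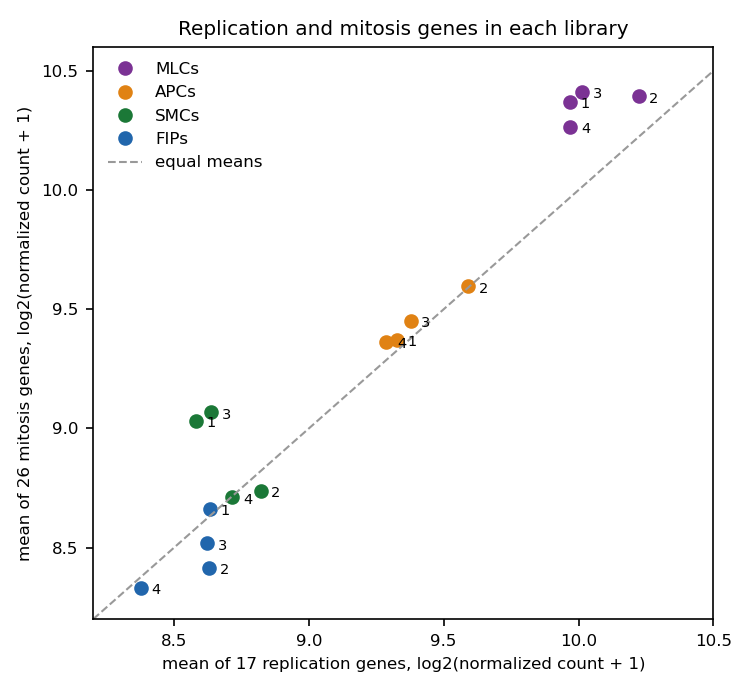
Mean log2(normalized count + 1) of the 26 mitosis genes (y axis) against that of the 17 replication genes (x axis), 1 point per library, numbered by replicate and coloured by population, with a dashed line of equal means. The MLC points sit above the line, the APC points lie close to it, and SMCs 1 and 3 (differences of 0.45 and 0.43) stand apart from SMCs 2 and 4.

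Other values moved with the division of the SMC libraries. The mature adipocyte markers summed to 1041, 594, 1401 and 478 in SMCs replicates 1 to 4, the mesothelial markers to 14160, 12743, 16393 and 10713, the FIP markers to 152018, 107358, 167112 and 113655, and the smooth muscle and pericyte markers to 18603, 16107, 18688 and 13854. All 4 sums were higher in replicates 1 and 3 than in replicates 2 and 4. So was the macrophage and myeloid sum, at 1099, 918, 1018 and 859, while the endothelial sum was lower in them, at 3812, 4334, 3510 and 3929. The precursor, erythroid and lymphocyte sums did not divide the libraries this way. Their part in the mitosis genes of the SMCs was not tested. SMCs replicate 3 also had the fewest reads of all libraries, 9204654, and replicate 1 had 19193934.

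Single libraries carried the replication genes up or down together elsewhere. MLCs replicate 2 was the highest MLC library in 17 of 17 replication genes and in 8 of 26 mitosis genes, beside 24.1% of all tested genes. APCs replicate 2 was the highest APC library in 15 of 17 and 22 of 26, beside 19.97% of all tested genes, and FIPs replicate 4 was the lowest FIP library in 16 of 17 and 20 of 26, beside 25.1% of all tested genes. Replicate 4 was the lowest MLC library in 7 of 17 and 21 of 26 (24.5% of all tested genes). In the SMCs it was lowest in 2 of 17 and 17 of 26 (22.4%), and in the APCs in 10 of 17 and 11 of 26 (37.4%). Whether these shifts follow the replicate number was not tested. So the spread within populations was shared over the genes, and the 45 are not 45 independent measurements.

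The other genes of the pathway, from lists of replication, mitosis and regulator genes, were all tested. Of 46 other replication genes, 20 were called higher in the MLCs than in the FIPs, 17 higher in the MLCs than in the SMCs, and 6 higher in the APCs than in the FIPs, with none called the other way in these pairs. The shares of all tested genes called in these directions were 18.6%, 14.4% and 5.22%. Of 55 other mitosis genes the counts were 51, 48 and 17, again none the other way. Between APCs and MLCs, 2 other replication and 9 other mitosis genes were called higher in the MLCs. Both shares were below the 17.7% of all tested genes in that direction. Between APCs and SMCs, 3 and 6 were called higher in the APCs, beside 3.79% of tested genes. Medians in FIPs minus MLCs were -0.94 for the other replication genes and -1.74 for the other mitosis genes. Between FIPs and SMCs, 1 other replication gene, Orc1, a subunit of the origin recognition complex named here after its values were seen, was called, at -1.06 (adjusted p = 0.000135), and no other mitosis gene was. Of all tested genes 17.9% were called in this pair, 13.3% as higher in the SMCs, so both lists were below the background.

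Among the other replication genes the widest ranges were those of Fen1, Gmnn, Tk1 and Asf1b. Fen1, the flap nuclease of lagging strand synthesis, averaged 962 ± 45.1 (SD, n = 4) normalized counts in the MLCs, 294 ± 43.4 in the APCs, 286 ± 22.2 in the SMCs and 172 ± 21.5 in the FIPs. Gmnn, geminin, which restrains Cdt1 after origins have fired, averaged 315 ± 25.0 in the MLCs and 58.7 ± 8.51 in the FIPs. Tk1, thymidine kinase, averaged 821 ± 79.8 in the MLCs, 485 ± 52.3 in the APCs and 181 ± 39.3 in the FIPs, and Asf1b, a histone chaperone, averaged 439 ± 68.7 in the MLCs and 119 ± 16.9 in the FIPs.

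Among the other mitosis genes, Dlgap5, a spindle protein, averaged 1135 ± 72.8 (SD, n = 4) in the MLCs, 303 ± 18.7 in the APCs, 218 ± 32.9 in the SMCs and 169 ± 19.8 in the FIPs. Cep55, of the midbody, averaged 667 ± 29.7 in the MLCs and 111 ± 12.2 in the FIPs, and Fbxo5, an inhibitor of the anaphase-promoting complex, 378 ± 19.2 and 75.2 ± 4.16. Hjurp, the chaperone of the centromeric histone Cenpa, averaged 2769 ± 93.6 in the MLCs, 518 ± 130 in the APCs, 710 ± 55.4 in the SMCs and 479.6 ± 57.5 in the FIPs. For Hjurp, unlike most of the mitosis genes, APCs and FIPs were not told apart (0.08 ± 0.14, adjusted p = 0.684).

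Of 18 genes of the E2F, RB and DREAM regulators, 5 were called higher in the MLCs than in the FIPs (18.6% of tested genes), 5 higher in the MLCs than in the APCs (17.7%), 6 higher in the MLCs than in the SMCs (14.4%), 2 higher in the APCs than in the FIPs (5.22%) and 1 higher in the FIPs than in the SMCs (4.6%). E2f2, an activator, averaged 351 ± 21.6 (SD, n = 4) in the MLCs, 148 ± 35.1 in the APCs, 90.9 ± 13.6 in the SMCs and 54.7 ± 2.67 in the FIPs. E2f8, an atypical repressor, followed the same order, from 627 ± 75.4 in the MLCs to 103 ± 9.88 in the FIPs, and so did Mybl2, which encodes B-Myb, from 329 ± 29.0 to 84.8 ± 10.1. E2f7, the other atypical repressor, did not: it averaged 696 ± 61.1 in the MLCs, 454 ± 22.0 in the FIPs, 301 ± 42.7 in the APCs and 218 ± 30.2 in the SMCs, and was called higher in the FIPs than in the SMCs (1.07 ± 0.11, adjusted p = 8.29e-08).

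Markers of other cell types were read beside these results. Lymphocyte markers summed to between 22.9 and 35.6 normalized counts in the population means, with 1 of 8 passing the filter on low values, and erythroid markers to between 115 and 158. The macrophage and myeloid sum was 2771 in the MLCs and between 722 and 974 elsewhere. In the MLCs 2210 of it was Csf1r, and elsewhere Cd68, at 593 to 734, made up most of it. Of the 11 listed genes 5 passed the filter on low values, Mrc1 averaged 109 in the MLCs and 23.7 to 50.4 elsewhere, and the macrophage markers Adgre1 and C1qa and the general leukocyte marker Ptprc averaged under 10 in every population. The endothelial sum was highest in the FIPs, 8226, of which Tek gave 7827, and lay between 1338 and 3896 elsewhere. Other endothelial genes went another way: Cdh5 averaged 1698 in the SMCs and 90.9 to 129 elsewhere, Kdr averaged 2485 in the MLCs and 826 in the SMCs, and Pecam1 averaged between 30.6 and 102. The populations with the most and the least RNA of the replication and mitosis genes, MLCs and FIPs, also differ in their own marker genes, and identity and division cannot be told apart in these libraries.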

How the data were processed

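RNA was measured by bulk sequencing in 16 libraries of 4 sorted populations, 4 libraries each. Per the labels' protocols, RNA of freshly sorted cells went into NEBNext Ultra II libraries. The submitters' processing notes name DESeq2 1.6.3, featureCounts 1.4.6, HISAT2 2.0.1 and Trim Galore 0.4.1, and build GRCm38 (mm10). Which annotation and strand setting were used is not given in the sources used here. The authors deposited 1 table of normalized counts, a signal per gene in which reads were divided by 1 size factor per library. Each value above 0 was a whole multiple of 1 step per library (100% of values, within 0.01), from which reads were recovered. The column names SMLCs were taken as the SMCs, the remaining population.

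Genes with a value of at least 10 in at least 4 libraries (15024) were tested with limma 3.58.1 (R 4.3.3) on log2(value + 1), a pseudocount of 1 that understates the changes of low genes, in 1 model of the 4 populations. P-values were adjusted by Benjamini-Hochberg over all tested genes, in each of 6 pairs. Rows without a symbol (1275) held about 0.1% of reads. edgeR 4.0.16 was run on recovered reads of 14 libraries, leaving out APCs replicate 2 and FIPs replicate 1, whose steps lie too near 1 for whole reads to be told from rounding, over 15111 genes. The scripts were tested on simulated data. Same-population libraries differed by more than sampling noise (chi-square per degree of freedom of 7.34 to 28.7). Deviations of same-numbered libraries of different populations correlated weakly, from -0.03 to 0.17, and the labels name no pairing. The main model therefore held no replicate block, and a block was tried as an alternative. Lengths are the exons of the GENCODE basic annotation of GRCm38. Each role's genes with the widest range, up to 3, were described library by library, and in each other list the 4 with the widest range among those called. The genes, their roles and all lists were chosen with earlier results of these data known. Alternatives were other pseudocounts, filters, scalings and fold limits, edgeR, the replicate block and leaving out libraries.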

Additional observations from a re-analysis of the deposited data

Results flagged for a closer look

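Of 180 groups of 4 libraries (45 genes in 4 populations), 14 had 1 library set apart from the other 3 by a gap, as a share of the group's range, past the limit of Dixon's test for 4 values. Chance alone flags about 5%, or 9 groups, and the genes are not independent. MLCs replicate 2 was the high library in 5 of them: Mcm4 at 2222 normalized counts (others 1909 to 1951), Mcm7 at 1939.9 (others 1611 to 1624), Cdc45 at 543 (others 421 to 438), Rrm1 at 3449 (others 3213 to 3242) and E2f1 at 518 (others 406 to 424). APCs replicate 2 was high in 4: Mcm5 at 1294 (others 968 to 1012), Gins1 at 119 (others 108 to 109), Ccnb1 at 464 (others 364 to 379) and Aurkb at 592 (others 459.96 to 475). In the FIPs, Gins1 was high in replicate 3 at 61.1 (others 46.2 to 48.1), Aurka was high in replicate 2 at 121 (others 107 to 108), and Mcm6 was low in replicate 4 at 1447 (others 1751 to 1785). In the SMCs, Cdt1 was low in replicate 1 at 256 (others 289 to 295) and Bub1 was low in replicate 4 at 193 (others 241 to 246).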

How the results depend on the processing

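Over 18 summary results and their alternatives, 426 of 444 values stayed within a limit and 18 moved past it. The limit was 1.5 times the reported value for a count and 1 SD between libraries for a class difference. Many of these values could not move. A class difference stays the same when the library left out belongs to neither population of the pair. It also stayed the same with the replicate block and with no filter. The tally is therefore no measure of how robust the results are. With libraries scaled to equal totals, 24 mitosis genes were called in APCs minus FIPs and 1 in FIPs minus SMCs; the median of all genes shifted to 0.23 and -0.23 in these pairs and to -0.35 in FIPs minus MLCs, and the share of calls higher in the APCs than in the FIPs went from 50.1% to 67.6%. Quantile normalization called 2 replication genes in APCs minus FIPs and 5 in APCs minus SMCs, gave a class difference of 0.52 in FIPs minus MLCs, and moved the share of calls higher in the first population from 22% to 44.5% in APCs minus SMCs and from 25.7% to 45.6% in FIPs minus SMCs. With no fold limit the counts of replication and mitosis genes were 17 and 26 in APCs minus FIPs, 15 and 26 in APCs minus MLCs, 17 and 24 in APCs minus SMCs, and 7 and 21 in FIPs minus SMCs, by construction. Of all tested genes 41.1%, 67.5%, 56.2% and 54% were called in these pairs without that limit, in either direction. edgeR called 1 replication gene in APCs minus SMCs. Apart from the fold limit, the cause was not tested. Of 270 single gene values under each of 25 settings, 0 called values changed sign. A called value of the main fit was at least 2-fold, so a change of sign was unlikely from the start. Among the uncalled values, 5 changed sign with libraries scaled to equal totals and 5 under quantile normalization. Quantile normalization lost 15 calls and gained 3, and scaling to equal totals lost 0 and gained 20.

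Leaving out 1 library at a time gave, for replication and mitosis genes called, 5 to 7 and 10 to 14 in APCs minus FIPs, 2 to 3 and 7 to 10 in APCs minus MLCs, 1 to 4 and 0 to 1 in APCs minus SMCs, 13 to 15 and 26 in FIPs minus MLCs, 0 and 0 in FIPs minus SMCs, and 14 to 15 and 26 in MLCs minus SMCs. The low end in APCs minus SMCs came without APCs replicate 2, and for mitosis genes also without SMCs replicate 2 or 4. The class differences ranged from -0.23 to -0.11 in APCs minus FIPs, 0.16 to 0.23 in APCs minus MLCs, 0.06 to 0.20 in APCs minus SMCs (0.06 without SMCs replicate 1, 0.20 without SMCs replicate 4), 0.35 to 0.47 in FIPs minus MLCs, 0.14 to 0.36 in FIPs minus SMCs (0.14 without SMCs replicate 1), and -0.18 to 0.05 in MLCs minus SMCs (0.05 without SMCs replicate 2).

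The replicate numbers were checked for pairing: over 24 same-numbered pairs the correlation of deviations ran from -0.03 to 0.17, with 6 over 0.1, and 8 of 16 libraries correlated best with their own number. Only the correlation between MLCs replicate 2 and SMCs replicate 2 was below 0. Different-numbered pairs ran from -0.19 to 0.22. The labels do not say whether same-numbered libraries share an origin. With the replicate number as a block, 1567 genes were called in APCs minus FIPs, against 1566 without it. The block left all 270 single gene calls and the counts of called replication and mitosis genes (6 and 12 in APCs minus FIPs) as they were.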
